A study of Mus musculus with 12 samples.

Results

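The 10 genes followed here encode heat shock chaperones of the cytosol and the mitochondrion: Hspa1a, Hspa1b, Hspa8, Hsph1, Hsp90aa1, Hsp90ab1, Dnajb1, Hspb1, Hspd1 and Hspe1. They were chosen by name, with earlier results of these same libraries known, and were found by matching the Ensembl identifiers of the deposited table to mouse symbols. All 10 of the 10 had a row among the 54532 genes of the table, and all 10 were above 0 in every library. The libraries came from colon of wild-type (WT) C57BL/6J mice, an inbred laboratory strain, in 4 groups of 3. The groups were HFD+DSS (a high-fat diet with 2% DSS), CD+DSS (a diet labelled CD with 2% DSS), HFD (high-fat diet without DSS) and CD (the CD diet without DSS). DSS is dextran sulfate sodium, a sulfated polysaccharide given to rodents to injure the colon epithelium and cause colitis. The meaning of CD is not spelled out in the labels, which give no age, sex, length of treatment or part of the colon. They do not say whether the 3 samples of a group were separate animals or shared a cage, so p-values measure the spread between these samples only.

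Heat shock chaperones bind unfolded or partly folded proteins and use cycles of ATP binding and cochaperone exchange to hold, refold or hand them on. Heat, oxidants, inflammation and other stresses that unfold proteins release the transcription factor HSF1, which binds repeats of the element nGAAn in the promoters of the inducible members. In the gut, inducible Hsp70 and Hsp25 are known as protective proteins of the surface epithelium that respond to bacterial products and to injury.

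Each library held between 14700000 and 17900000 fragments on genes, recovered from the deposited values, so counting error was small for the chaperones: the lowest, Hspa1a, had 99 to 1129 fragments per library. The colon label was checked with 8 epithelial markers, among them Epcam and Krt20, whose summed level was 5693 to 5697 FPKM in HFD+DSS, 5678 to 8780 FPKM in CD+DSS, 3992 to 6367 FPKM in HFD and 4823 to 5396 FPKM in CD. FPKM is the number of fragments divided by exon length and by a divisor for each library, a level per length. The divisor recovered here was not the number of fragments on genes. In CD+DSS replicate 2 it was 13500000 for 16000000 fragments, and in HFD+DSS replicate 3 it was 19100000 for 17900000. Among genes detected in every library, the median ratio to a gene's geometric mean was 1.009 in each library. By that measure the deposited values were already on a common scale between libraries. How the divisor was set was not tested. HFD+DSS replicate 1 lay apart from the other libraries on the second principal component and HFD+DSS replicate 3 on the third, and values without one of them are given beside several of the differences in which they enter. Hoxb13, Hoxa13 and Hoxd13, 3 posterior Hox genes that mark the distal gut, summed to 46.6 to 92.8 FPKM in HFD+DSS, 1.62 to 40.5 FPKM in CD+DSS, 7.04 to 34.8 FPKM in HFD and 38.3 to 111 FPKM in CD, so the libraries differed in a marker of position.

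Promoter windows are shown because the members share, to different degrees, the HSF1 element. Windows of 300 bases, 250 before and 50 after an annotated start, were taken from RefSeq on GRCm38.p6, the build of which mm10 is another name, for the 7 members that the table holds: Hspa1a, Hspa1b, Hsph1, Dnajb1, Hspb1, Hspd1 and Hspe1. Hspa8, Hsp90aa1 and Hsp90ab1 were not matched. Capitals mark each match to GAANNTTC or TTCNNGAA, a pair of facing half-sites, overlapping matches joined. Both motifs read the same on either strand, and positions below count from -1 at the base before the start. The windows shown are those of Hspa1a (chr17:34972107-34972406, minus strand), Hspa1b (chr17:34959189-34959488, minus strand), Hsph1 (chr5:149636266-149636565, minus strand), Hspb1 (chr5:135887669-135887968, plus strand) and Hspe1 (chr1:55087898-55088197, plus strand).
Hspa1a: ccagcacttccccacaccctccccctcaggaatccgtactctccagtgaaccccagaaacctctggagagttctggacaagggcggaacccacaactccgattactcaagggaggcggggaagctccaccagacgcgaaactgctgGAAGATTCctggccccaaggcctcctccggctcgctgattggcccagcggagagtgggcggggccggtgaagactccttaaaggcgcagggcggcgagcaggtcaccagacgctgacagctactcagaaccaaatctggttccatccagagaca
Hspa1b: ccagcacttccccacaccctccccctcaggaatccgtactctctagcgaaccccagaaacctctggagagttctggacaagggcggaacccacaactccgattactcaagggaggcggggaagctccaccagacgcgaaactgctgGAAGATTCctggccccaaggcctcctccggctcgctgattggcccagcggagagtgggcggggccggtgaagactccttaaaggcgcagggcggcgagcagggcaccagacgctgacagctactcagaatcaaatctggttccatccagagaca
Hsph1: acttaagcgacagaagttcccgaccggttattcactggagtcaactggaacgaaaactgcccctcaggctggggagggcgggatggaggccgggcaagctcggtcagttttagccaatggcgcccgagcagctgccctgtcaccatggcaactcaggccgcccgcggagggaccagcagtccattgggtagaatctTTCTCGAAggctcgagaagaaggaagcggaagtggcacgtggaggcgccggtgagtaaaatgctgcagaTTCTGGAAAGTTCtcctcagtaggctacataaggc
Hspb1: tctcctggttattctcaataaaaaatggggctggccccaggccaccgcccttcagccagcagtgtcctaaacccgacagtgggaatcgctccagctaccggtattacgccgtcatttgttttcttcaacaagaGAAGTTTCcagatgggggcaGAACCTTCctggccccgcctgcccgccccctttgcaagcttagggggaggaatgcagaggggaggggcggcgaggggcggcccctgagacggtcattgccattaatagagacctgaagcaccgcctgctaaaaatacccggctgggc
Hspe1: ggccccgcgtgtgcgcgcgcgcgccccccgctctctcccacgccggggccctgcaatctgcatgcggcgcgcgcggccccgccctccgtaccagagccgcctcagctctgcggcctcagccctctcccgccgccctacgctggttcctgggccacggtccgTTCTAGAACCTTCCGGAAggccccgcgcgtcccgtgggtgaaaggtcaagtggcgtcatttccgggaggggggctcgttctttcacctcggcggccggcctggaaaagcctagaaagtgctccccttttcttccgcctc

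A pair was found in the windows of 6 of these 7 members, Dnajb1 being the one without, against 17.0% of 27025 RefSeq genes, a gene counted where any of its windows matched. The triple GAANNTTCNNGAA or TTCNNGAANNTTC, which contains 2 overlapping pairs, was found in Hsph1, Hspd1 and Hspe1, against 0.662% of all genes. The Hspa1a and Hspa1b windows differed at 4 of 300 bases, and each held GAAGATTC at -104 to -97. Hsph1 held TTCTCGAA at -54 to -47 and the triple TTCTGGAAAGTTC at 15 to 27, after the start of this window. Hspd1 and Hspe1 are transcribed away from each other from 1 shared stretch: 285 bases of their windows are the same DNA on opposite strands, with the matched run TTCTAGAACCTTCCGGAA in it. The letters TATAAA on the sense strand were in none of the 7 members' windows, against 9.77% of all genes. A match is a description of the letters only.

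The members spanned a wide range of levels. Over the 12 libraries Hsp90ab1, the constitutive cytosolic Hsp90, averaged 543 ± 74.1 FPKM and Hspa8, the constitutive cytosolic Hsp70, 511 ± 149 FPKM (SD, n = 12), and these neighbours did not differ beyond their spread. Hsp90aa1, the inducible Hsp90, averaged 161.5 ± 41.7 FPKM and Hspd1, the mitochondrial chaperonin Hsp60, 155.3 ± 35.5 FPKM, again within their spread. Hspe1, the cochaperonin Hsp10 that caps the Hsp60 ring, averaged 77.6 ± 19.7 FPKM and Hspb1, the small heat shock protein Hsp25, 47.2 ± 26.7 FPKM. Hspa1b at 28.5 ± 24.5 FPKM, Dnajb1 at 26.7 ± 7.83 FPKM and Hsph1 at 23.6 ± 9.59 FPKM lay within each other's spread, and Hspa1a was lowest at 8.88 ± 7.72 FPKM. These spreads take in the differences between groups. Hspa1b was above Dnajb1 in CD+DSS (61.7 to 74.6 against 34.6 to 37.7 FPKM) and below it in HFD (5.97 to 10.4 against 18.6 to 22.8 FPKM). The annotated span of Hspa1a overlaps that of Gm20481, a gene on the opposite strand with 0 FPKM in every library, by 2225 bases. The strand setting of the counting is not given, so the low level of Hspa1a may depend on it. The highest library exceeded the lowest 12.5-fold for Hspa1b and 12.0-fold for Hspa1a, but 1.65-fold for Hsp90ab1 and 1.87-fold for Hspd1.

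**Figure D1:**
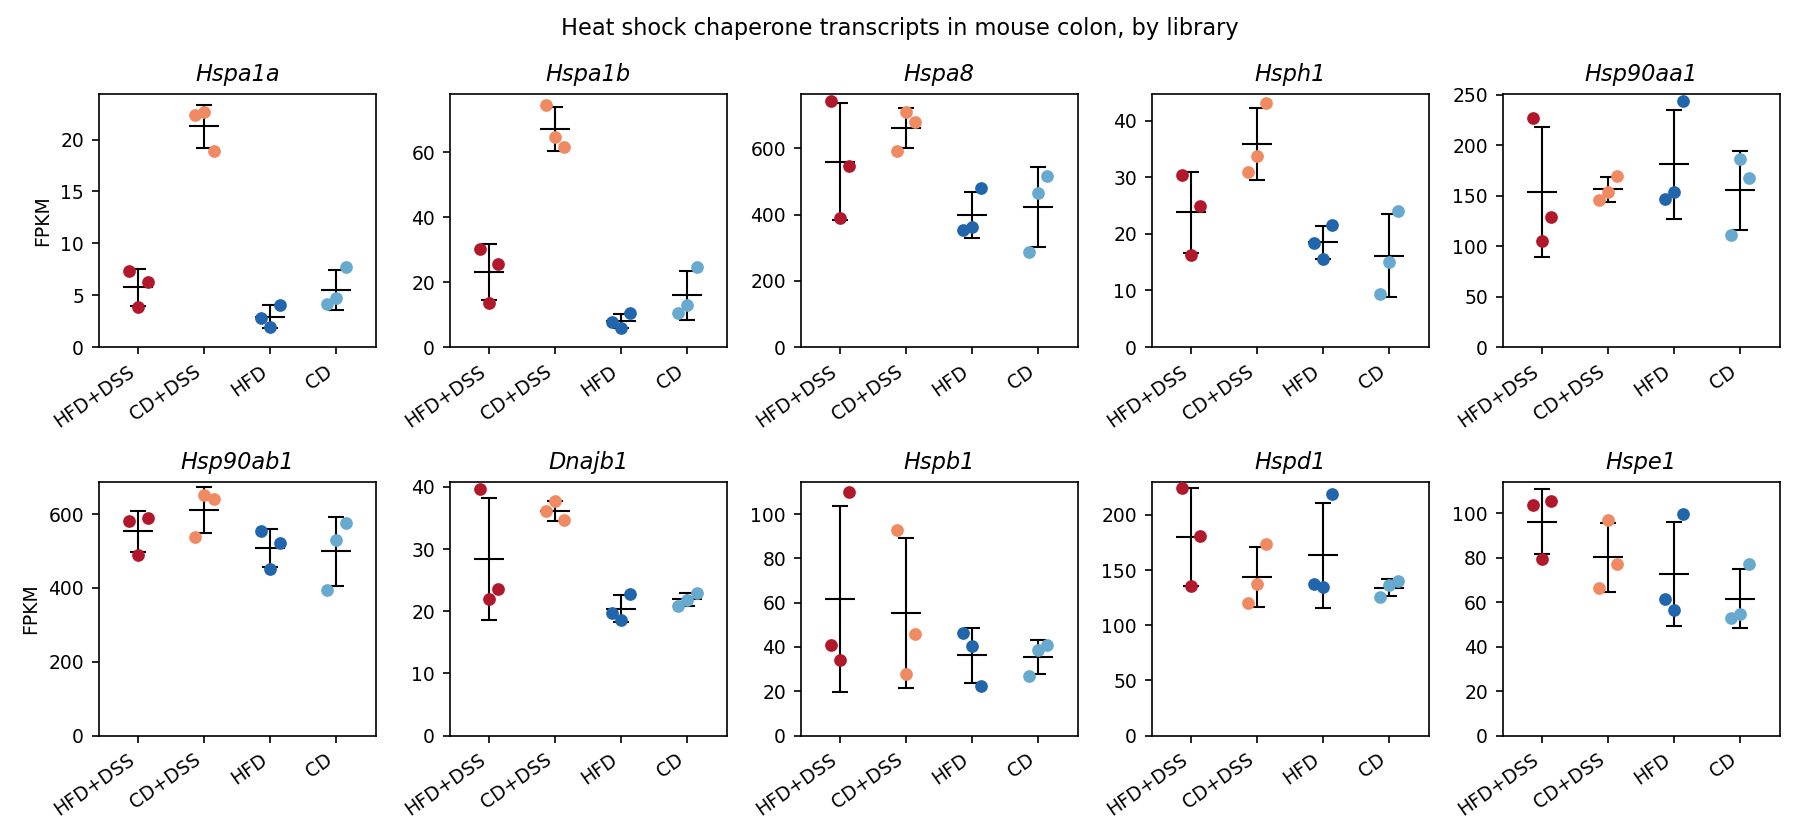
FPKM (vertical axes, from 0) of the 10 chaperone genes in the HFD+DSS, CD+DSS, HFD and CD groups; each point is a library, and the bar with whiskers is the mean ± SD of 3 libraries. The 3 CD+DSS libraries stand above the other 9 for Hspa1a (18.9 to 22.6 FPKM) and Hspa1b (61.7 to 74.6 FPKM), while Hsp90aa1 and Hspd1 overlap in all groups.

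The first comparison was that of DSS under the CD diet. The inducible Hsp70 genes Hspa1a and Hspa1b had mean FPKM 3.86-fold and 4.19-fold higher in CD+DSS than in CD. The constitutive Hsp70 gene Hspa8 and the Hsp70 partners Hsph1 and Dnajb1 also lay higher in every CD+DSS library, whereas the Hsp90 and mitochondrial members overlapped. Of the 10 members, 1 (Hspa1a) passed an adjusted p of 0.05, against 0.0846% of the 14179 genes tested (0.0705% higher). Since the members were chosen with this comparison known, nothing is read from that count. The median log2 fold change of the 10 members was 0.58, beside 0.01 for all genes tested, and all 10 were positive, beside 51.5% of all genes. Of these, Hsp90aa1 and Hspd1 lay near 0. With 1 library left out, Hsp90aa1 was as low as -0.18 (without CD replicate 1) and Hspd1 as low as -0.06.

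Hspa1a, 1 of 2 intronless genes for the stress-inducible cytosolic Hsp70 (ENSMUSG00000091971, chromosome 17, 34969190 to 34972156, minus strand), had 22.4, 22.6 and 18.9 FPKM in the CD+DSS libraries, against 4.10, 4.72 and 7.70 FPKM in the CD libraries. Hspa1b, the other copy (ENSMUSG00000090877, chromosome 17, 34956436 to 34959238, minus strand), had 74.6, 64.6 and 61.7 FPKM in CD+DSS, against 10.4, 12.96 and 24.5 FPKM in CD. Every CD+DSS library exceeded every CD library for both genes, and the CD+DSS values were the tighter ones, with a coefficient of variation of 9.84% for Hspa1a in CD+DSS against 34.95% in CD. On the log2(FPKM + 1) scale Hspa1a rose by 1.81 ± 0.27 (SE; limma, adjusted p = 0.0398), and the log2 difference of Hspa1b was 2.09 ± 0.33, which did not pass (limma, adjusted p = 0.0624). The copies share 52.7% of the 75-base stretches of the Hspa1a transcripts, so their split between the genes is uncertain. Their summed level was 97.0, 87.2 and 80.6 FPKM in CD+DSS, against 14.5, 17.7 and 32.2 FPKM in CD, a log2 difference of 2.06 ± 0.33 (limma, adjusted p = 0.0652).

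The call of Hspa1a rested on the settings: over 20 alternatives its log2 fold change stayed between 1.66 and 2.04, but the limma adjusted p lay between 0.0208 (without CD replicate 3) and 0.555 (with the posterior Hox level as a covariate), and 7 of 20 passed. Between the same groups 4 cell type marker lists did not overlap in their sums either. The 8 T and NK cell markers summed to 60.2 to 145 FPKM in CD+DSS, against 18.2 to 53.5 FPKM in CD, all 8 epithelial markers to 5678 to 8780 FPKM against 4823 to 5396 FPKM, all 6 B and plasma cell markers to 238 to 502.5 FPKM against 638 to 1093 FPKM, and all 8 enteric neuron and glia markers to 27.7 to 36.2 FPKM against 22.8 to 24.3 FPKM. Their part in the result was not tested, and in bulk tissue more cells of a type and more RNA per cell cannot be told apart.

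The constitutive Hsp70 and the partners of Hsp70 come next by role. Hspa8, the housekeeping Hsc70 (ENSMUSG00000015656, chromosome 9, 40800984 to 40810087, plus strand), had 593, 709.7 and 680.4 FPKM in CD+DSS, against 286, 467 and 516 FPKM in CD. Hsph1, the Hsp110 nucleotide exchange factor of Hsp70 (ENSMUSG00000029657, chromosome 5, 149614287 to 149636376, minus strand), had 30.9, 33.8 and 43.1 FPKM in CD+DSS, against 9.37, 15.0 and 23.9 FPKM in CD. Dnajb1, the Hsp40 J-domain protein that stimulates the Hsp70 ATPase (ENSMUSG00000005483, chromosome 8, 83608193 to 83612653, plus strand), had 36.1, 37.7 and 34.6 FPKM in CD+DSS, against 20.9, 21.7 and 23.0 FPKM in CD. None of the 3 genes overlapped between the groups. With Hspa1a and Hspa1b, copies that share reads, 5 of the 10 members lay higher in every CD+DSS library, where 13.7% of all genes tested did so. The members were chosen with this comparison known, so nothing is read from that count either. The log2 differences were 0.68 ± 0.28 for Hspa8 (limma, adjusted p = 0.299), 1.19 ± 0.31 for Hsph1 (limma, adjusted p = 0.142) and 0.70 ± 0.20 for Dnajb1 (limma, adjusted p = 0.168), and none passed.

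The other 5 members overlapped between CD+DSS and CD. Hsp90aa1 (ENSMUSG00000021270, chromosome 12) had 145.5 to 169.8 FPKM in CD+DSS, inside its range of 111 to 186 FPKM in CD, with a log2 difference of 0.04 ± 0.31 (limma, adjusted p = 0.963). Hsp90ab1 (ENSMUSG00000023944, chromosome 17) had 539 to 652 FPKM in CD+DSS, against 395 to 575.5 FPKM in CD, a log2 difference of 0.30 ± 0.20. Hspd1 (ENSMUSG00000025980, chromosome 1) had 120.1 to 174 FPKM in CD+DSS, against 125 to 140.3 FPKM in CD, and Hspe1 (ENSMUSG00000073676, chromosome 1) 66.4 to 97.0 FPKM against 53.0 to 76.9 FPKM. The log2 difference was 0.09 ± 0.24 for Hspd1 and 0.38 ± 0.25 for Hspe1, and neither passed. The 2 mitochondrial genes overlap by 112 bases on opposite strands, and the strand setting of the counting is not given in the sources used here.

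Hspb1 (ENSMUSG00000004951, chromosome 5, 135887919 to 135889563, plus strand), a small ATP-independent chaperone that also binds actin filaments, had the widest relative spread of the 10 within both DSS-treated groups. It had 92.9, 27.6 and 45.7 FPKM in CD+DSS, against 26.8, 38.5 and 41.1 FPKM in CD. CD+DSS replicate 1 was high and replicate 2 was within the CD range, and the log2 difference was 0.48 ± 0.49 (limma, adjusted p = 0.653). The 10 smooth muscle markers, all tested, summed to 1267, 679 and 804 FPKM in the same CD+DSS libraries, against 1181, 1505 and 1226 FPKM in CD. With the smooth muscle level as a covariate the log2 difference of Hspb1 was 1.21 (limma, adjusted p = 0.248).

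DSS under the high-fat diet was the second comparison. Hspa1b was the 1 member whose HFD+DSS libraries all exceeded the HFD libraries, and the log2 differences of Hspa1a and Hspa1b were 0.79 and 1.38, beside 1.81 and 2.09 under the CD diet, a contrast between diets that did not pass its own test. None of the 10 members passed in limma (0 of 10, against 0.339% of all genes, and 0 with voom), and 2, Hspa1a and Hspa1b, had an unadjusted p under 0.05, against 13.6% of all genes. The median log2 fold change of the members was 0.42, beside 0.01 for all genes, and 9 of 10 were positive, or 8 of 10 without HFD+DSS replicate 1.

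Hspa1b had 30.1, 13.5 and 25.5 FPKM in the HFD+DSS libraries, against 7.62, 5.97 and 10.4 FPKM in the HFD libraries. Hspa1a had 7.29, 3.81 and 6.23 FPKM in HFD+DSS, against 2.84, 1.89 and 4.09 FPKM in HFD. HFD+DSS replicate 2 was the low library for both, and for Hspa1a it fell below the highest HFD library. The log2 difference was 1.38 ± 0.33 for Hspa1b (limma, adjusted p = 0.122), the 1 member of 10 without overlap and higher, where 8.82% of all genes were, and 0.79 ± 0.27 for Hspa1a (limma, adjusted p = 0.242). With each library left out in turn, these lay between 1.15 and 1.71 for Hspa1b and between 0.58 and 1.01 for Hspa1a. Neither passed in any of those fits. The summed level was 37.4, 17.3 and 31.8 FPKM in HFD+DSS, against 10.5, 7.86 and 14.5 FPKM in HFD, a log2 difference of 1.29 ± 0.33 (limma, adjusted p = 0.146). Of the marker lists, 6 neutrophil markers summed to 98.7 to 562 FPKM in HFD+DSS against 3.18 to 59.7 FPKM in HFD, the 8 T and NK cell markers to 22.3 to 43.0 FPKM against 65.5 to 90.6 FPKM, and the 6 B and plasma cell markers to 141 to 555 FPKM against 615 to 836 FPKM. Of the neutrophil sums, Ly6g alone gave 92.7 to 521 FPKM in HFD+DSS and 0.80 to 58.4 FPKM in HFD. The posterior Hox genes did not overlap between HFD+DSS and HFD either, and the part of these lists in the result was not tested.

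Hspa8 had 743, 389 and 548 FPKM in HFD+DSS, against 352.5, 364 and 479.5 FPKM in HFD. Hsph1 had 30.4, 16.2 and 24.9 FPKM in HFD+DSS, against 18.3, 15.6 and 21.5 FPKM in HFD. Dnajb1 had 39.7, 21.9 and 23.6 FPKM in HFD+DSS, against 19.7, 18.6 and 22.8 FPKM in HFD. In each, HFD+DSS replicate 1 was highest and replicate 2 lay inside the HFD range. The log2 differences were 0.45 ± 0.28, 0.32 ± 0.31 and 0.41 ± 0.20 for Hspa8, Hsph1 and Dnajb1, and none passed. Without HFD+DSS replicate 1, the library apart on the second component, they were 0.23, 0.13 and 0.16. Without HFD+DSS replicate 2, the low library, they were 0.69, 0.56 and 0.57, and again none passed.

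Among the remaining members under HFD, Hsp90aa1 had 105 to 227 FPKM in HFD+DSS, against 146 to 243 FPKM in HFD, a log2 difference of -0.28 ± 0.31, the 1 negative value of the 10 with all libraries. It was -0.60 without HFD+DSS replicate 1. Hspe1 had 104, 79.3 and 106 FPKM in HFD+DSS, against 61.5, 56.6 and 99.6 FPKM in HFD, and Hspd1 224, 136 and 181 FPKM against 137.5, 135 and 218.5 FPKM. HFD replicate 3 was high for both mitochondrial genes, so the groups overlapped, and the log2 differences were 0.44 ± 0.25 for Hspe1 and 0.15 ± 0.24 for Hspd1. The value of Hspd1 changed sign, to -0.03, without HFD+DSS replicate 1. Hsp90ab1 had a log2 difference of 0.12 ± 0.20, which was 0.085 without HFD+DSS replicate 1 and 0.077 without HFD+DSS replicate 3. Hspb1 had 40.8, 34.0 and 110.0 FPKM in HFD+DSS, against 46.2, 40.3 and 22.4 FPKM in HFD. HFD+DSS replicate 3 alone was above the HFD range. Its smooth muscle markers summed to 3147 FPKM, against 1169 and 1114 FPKM in the other HFD+DSS libraries and 822 to 1865 FPKM in HFD. Without it the log2 difference of Hspb1 was 0.10, against 0.61 ± 0.49 with it.

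Averaged over both diets, a comparison that uses the same 12 libraries, both inducible Hsp70 genes rose with DSS. Hspa1b rose by 1.73 ± 0.24 (limma, adjusted p = 0.00773) and Hspa1a by 1.30 ± 0.19 (limma, adjusted p = 0.00825) on the log2 scale. These were 2 of 10 members, against 2.74% of all genes (1.87% higher), and both passed in each of 19 alternatives, with limma adjusted p up to 0.0299 for Hspa1a and 0.0295 for Hspa1b. Dnajb1 had a log2 difference of 0.56 ± 0.14 (limma, adjusted p = 0.0595), Hsph1 0.75 ± 0.22 (limma, adjusted p = 0.0837) and Hspa8 0.57 ± 0.20 (limma, adjusted p = 0.131). Dnajb1 passed with voom (adjusted p = 0.0483) and without HFD+DSS replicate 2 (limma, adjusted p = 0.0434), and Hsph1 without CD replicate 3 (limma, adjusted p = 0.0358). Among the marker genes of other cells S100a9 of neutrophils rose by 2.46 ± 0.40 (limma, adjusted p = 0.0123), Cd14 of macrophages by 0.81 ± 0.12 and Gfap of glia by 1.57 ± 0.23, while Jchain of plasma cells fell by 1.35 ± 0.32. Each was the 1 gene of its list that passed. Positive were 4 of 4 tested neutrophil markers (median log2 difference 2.20) and 7 of 8 enteric neuron and glia markers (0.35). Of the macrophage markers 5 of 8 were positive (median 0.13), and of the B and plasma cell markers 3 of 6 (-0.08). The part of these genes in the result was not tested. Hsp90aa1 at -0.12 ± 0.22, Hsp90ab1 at 0.21 ± 0.14, Hspd1 at 0.12 ± 0.17 and Hspb1 at 0.55 ± 0.35 were within 2 standard errors of 0, while Hspe1 was at 0.41 ± 0.18 (limma, adjusted p = 0.193). Without HFD+DSS replicate 1 Hsp90aa1 was at -0.28 and Hspd1 at 0.03, and without HFD+DSS replicate 3 Hsp90aa1 was at -0.07 and Hspb1 at 0.29. In all, 6 of 10 members had an unadjusted p under 0.05, against 23.5% of all genes.

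**Figure D2:**
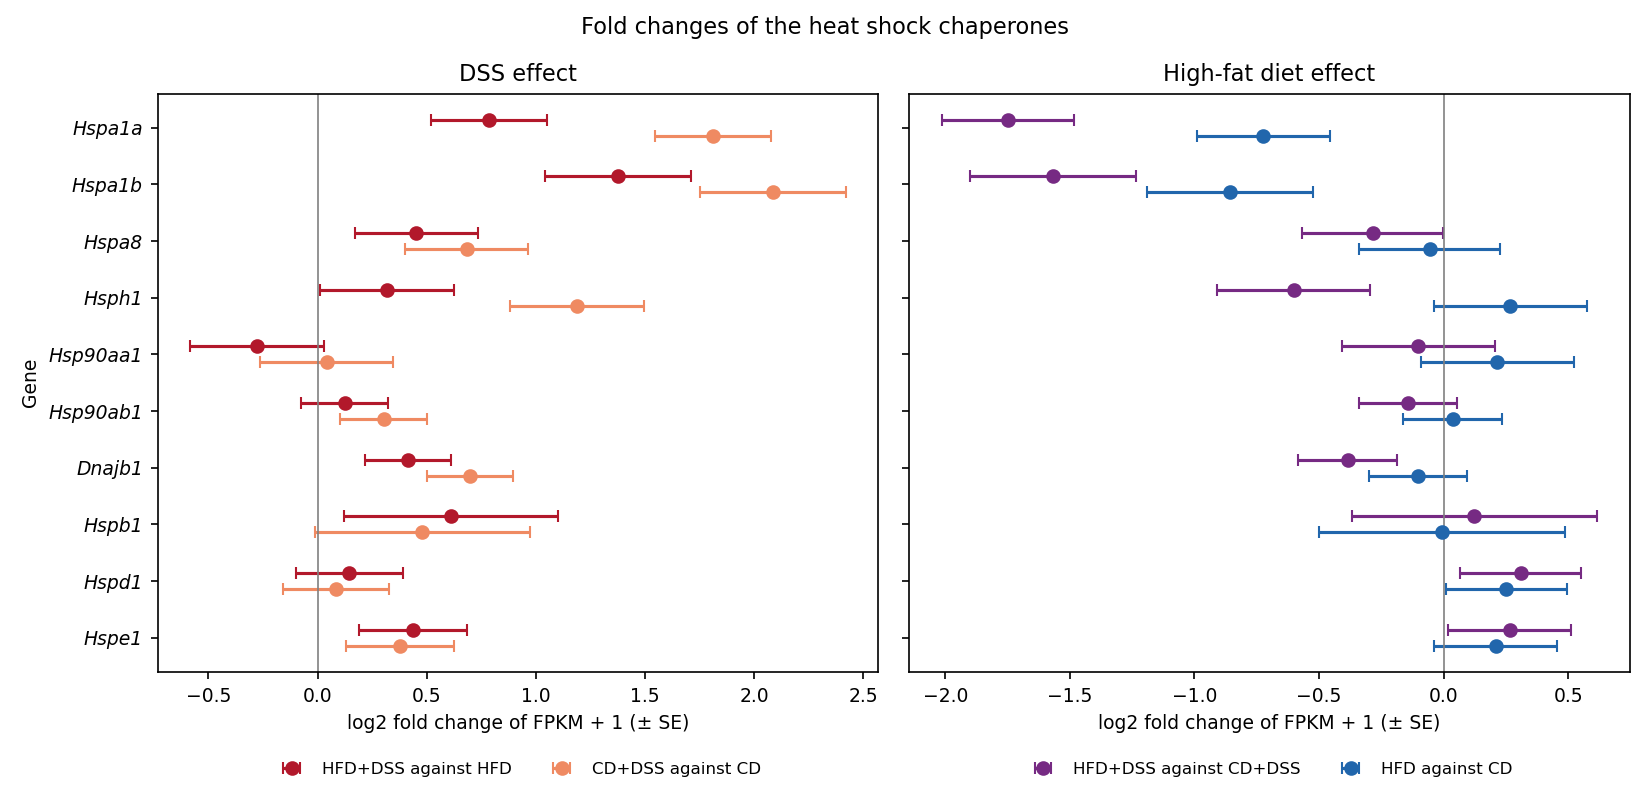
Log2 fold changes of FPKM + 1 with standard errors (horizontal axes) for the 10 genes, with HFD+DSS against HFD and CD+DSS against CD on the left and HFD+DSS against CD+DSS and HFD against CD on the right. Hspa1a (1.81 in CD+DSS against CD, -1.75 in HFD+DSS against CD+DSS) and Hspa1b (2.09 and -1.57) lie farthest from 0.

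The third comparison was that of the diets among DSS-treated colons. The inducible Hsp70 genes lay lower in every HFD+DSS library than in any CD+DSS library. Hspa1a, at 7.29, 3.81 and 6.23 FPKM in HFD+DSS, was below its 18.9 to 22.6 FPKM in CD+DSS, and Hspa1b, at 30.1, 13.5 and 25.5 FPKM, was below its 61.7 to 74.6 FPKM. The ratio of group means was 0.272 for Hspa1a and 0.344 for Hspa1b. Hsph1 was also lower in every HFD+DSS library, at 16.2 to 30.4 FPKM against 30.9 to 43.1 FPKM in CD+DSS. These 3 of 10 members had no overlap and were lower, against 5.85% of all genes. No member passed (0 of 10, against 0% of all genes called in limma and 0 with voom), and 2 members had an unadjusted p under 0.05, as did 938 of 14179 genes (6.62%).

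Hspa1a had a log2 difference of -1.75 ± 0.27 in HFD+DSS against CD+DSS (limma, adjusted p = 0.505), and its unadjusted p ranked 1 of 14179 genes. Hspa1b had -1.57 ± 0.33 (limma, adjusted p = 0.678) and ranked 13. Hsph1 had -0.60 ± 0.31 (limma, adjusted p = 0.752) and Dnajb1 -0.38 ± 0.20 (limma, adjusted p = 0.754). Over 20 alternatives the difference of Hspa1a stayed between -1.93 and -1.52, with limma adjusted p from 0.201 to 1. The posterior Hox genes did not overlap between the same groups, at 46.6 to 92.8 FPKM in HFD+DSS against 1.62 to 40.5 FPKM in CD+DSS, and with their level as a covariate the difference of Hspa1a was -1.90 and that of Hspa1b -1.74 (limma, adjusted p = 1 for both). The 8 T and NK cell markers, 22.3 to 43.0 FPKM in HFD+DSS against 60.2 to 145 FPKM in CD+DSS, moved with it as well, and their part in the result was not tested.

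The remaining members overlapped between HFD+DSS and CD+DSS. Hspd1 (log2 difference 0.31 ± 0.24) and Hspe1 (0.27 ± 0.25) were on the positive side, while Hspa8 (-0.28 ± 0.28), Hsp90ab1 (-0.14 ± 0.20) and Hsp90aa1 (-0.10 ± 0.31) were on the negative side, and none passed. Without HFD+DSS replicate 1 they were 0.14 for Hspd1, -0.51 for Hspa8, -0.42 for Hsp90aa1 and, of the Hsp70 partners, -0.64 for Dnajb1. Hsp90aa1 was at -0.01 without HFD+DSS replicate 3. Hspb1 averaged 61.6 ± 42.0 FPKM in HFD+DSS and 55.4 ± 33.7 FPKM in CD+DSS (SD, n = 3 each), with a log2 difference of 0.12 ± 0.49. That value changed sign, to -0.39, without HFD+DSS replicate 3, and was 0.32 without replicate 1.

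Without DSS, Hspa1a and Hspa1b again lay lower under the high-fat diet, by a narrow margin. Hspa1a averaged 2.94 ± 1.10 FPKM in HFD and 5.51 ± 1.93 FPKM in CD, and Hspa1b 7.99 ± 2.24 FPKM in HFD and 15.97 ± 7.53 FPKM in CD (SD, n = 3 each). In both genes the highest HFD library was just below the lowest CD library, 4.09 against 4.10 FPKM for Hspa1a and 10.40 against 10.42 FPKM for Hspa1b. The log2 differences were -0.72 ± 0.27 and -0.86 ± 0.33 for Hspa1a and Hspa1b (limma, adjusted p = 1 for both). These 2 of 10 members had no overlap and were lower, against 5.02% of all genes. The posterior Hox genes, at 7.04 to 34.8 FPKM in HFD against 38.3 to 111 FPKM in CD, the 8 T and NK cell markers, at 65.5 to 90.6 FPKM against 18.2 to 53.5 FPKM, and the 8 enteric neuron and glia markers, at 24.5 to 34.5 FPKM against 22.8 to 24.3 FPKM, did not overlap between these groups either. The 6 adipocyte markers overlapped, at 51.5 to 226 FPKM in HFD against 5.65 to 107 FPKM in CD, but their 5 tested genes were all positive, with a median log2 difference of 1.82 and 4 at an unadjusted p under 0.05. The part of these lists in the result was not tested. None passed (0 of 10, against 0% of all genes in limma, and 0 with voom), while 2 of 10 members, and 588 genes in all (4.15%), had an unadjusted p under 0.05. The other 8 members had log2 differences from -0.10 for Dnajb1 to 0.27 for Hsph1.

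The test of the difference between the DSS effects, under HFD minus under CD, passed for no member (0 of 10 in limma, against 0% of all genes, and 0 with voom). Only Hspa1a had an unadjusted p under 0.05, at -1.03 ± 0.38 on the log2 scale (limma, unadjusted p = 0.0193, adjusted p = 0.806), as did 769 genes in all (5.42%). Hsph1 had -0.87 ± 0.43 and Hspb1 0.13 ± 0.70 (-0.38 without HFD+DSS replicate 3), and for the summed Hspa1a and Hspa1b level the value was -0.77 ± 0.47 (limma, adjusted p = 1.00). Averaged over DSS status, the high-fat diet gave -1.24 ± 0.19 for Hspa1a (limma, adjusted p = 0.329) and -1.21 ± 0.24 for Hspa1b (limma, adjusted p = 0.453), with ranks 1 and 9 by unadjusted p. No gene passed in that average (0 of 14179 in limma and 0 with voom, with 662, or 4.67%, at an unadjusted p under 0.05).

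In each of CD, HFD and HFD+DSS, at least 7 of the 10 chaperones were lowest in 1 library and at least 7 highest in another. In CD+DSS the largest such counts were 6 and 5. In HFD+DSS, replicate 2 was lowest for all 10 members, against 22.1% of all genes tested, and replicate 1 highest for 7, against 37.9%. In CD+DSS, replicate 1 was lowest for 6 members, against 32.1% of all genes, and replicate 2 highest for 5, against 42.9%. In HFD, replicate 3 was highest for 8 members, against 41.2% of all genes, and replicate 2 lowest for 7, against 31.3%. In CD, replicate 1 was the lowest library for all 10 members, against 26.1% of all genes, and replicate 3 the highest for 9, against 40.2%.

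Marker sums stood apart in some of the same libraries. The 6 neutrophil markers summed to 562 FPKM in HFD+DSS replicate 1, against 112 and 98.7 FPKM in replicates 2 and 3. Ly6g alone gave 521 FPKM of that 562 FPKM. The adipocyte markers summed to 148 FPKM in HFD+DSS replicate 2, against 22.6 and 70.9 FPKM in replicates 1 and 3. In HFD, the neutrophil sum was 59.7 FPKM in replicate 3, against 3.18 and 3.20 FPKM in replicates 1 and 2. Of the 59.7 FPKM, Ly6g alone gave 58.4 FPKM, and no other neutrophil marker was highest in HFD replicate 3. S100a9, for 1, had 0.375 FPKM there, against 0.722 and 0.977 FPKM in replicates 1 and 2. The smooth muscle sum in HFD was 1865 FPKM in replicate 2, against 1305 and 822 FPKM in replicates 1 and 3. CD replicate 3 had the highest sum of 6 squamous epithelium markers, 10.9 FPKM against 0.476 and 1.05 FPKM in replicates 1 and 2, and of 6 skeletal muscle markers, 34.8 FPKM against 7.28 and 6.65 FPKM. The part of these cells in the order of the libraries was not tested.

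Variation within groups was also described with the deviations of log2(FPKM + 1) from group means. All 36 pairs that leave out Hspb1 had a positive r, from 0.35 to 0.97 with a median of 0.70, and 4 of the 9 pairs with Hspb1 did, from -0.28 to 0.26. The highest, 0.97, was that of Hspa1a with Hspa1b, copies that share reads and both enter the pairs with other members. Over all pairs of the 7808 genes at a mean of 5 FPKM or more, 53.3% were positive, with a median r of 0.05. These r values come from 12 libraries that share depth and tissue makeup between genes, and the pairs share members.

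**Figure D3:**
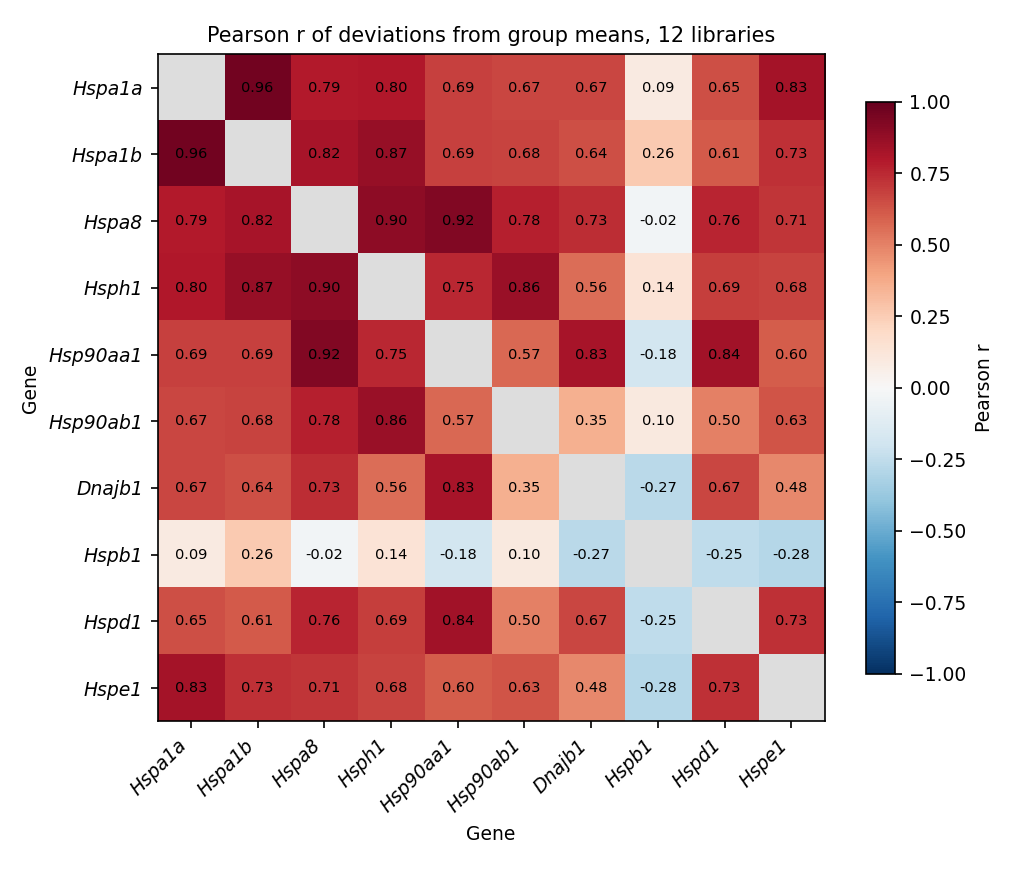
Pearson r between members of the deviations of log2(FPKM + 1) from group means over 12 libraries, as numbers and colours on a scale of -1 to 1, with rows and columns the 10 genes. The Hspb1 row and column stand out, with r from -0.28 to 0.26, against 0.35 to 0.97 among the other 9 genes. The 0.97 is that of Hspa1a with Hspa1b, copies that share reads.

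Across libraries, without removing group means, 45 pairs of members were computed. The permutations ignored the groups, so these r and p include the differences between groups given above. Pairs with Hspa1a or Hspa1b were computed over the 9 libraries outside CD+DSS, since the CD+DSS values formed a cluster of their own. Pearson's r and Spearman's rho both passed in 8 pairs after Benjamini-Hochberg adjustment over the 45. Hspa8 and Hsph1 had r = 0.92 (permutation p = 3e-05, adjusted p = 0.00135) and rho = 0.89 (permutation p = 0.0004, adjusted p = 0.00795) over 12 libraries, and r = 0.90 without the 2 libraries farthest from the median of Hspa8. Hspa8 and Dnajb1 had r = 0.88 (permutation p = 0.00021, adjusted p = 0.00236) and rho = 0.96 (permutation p = 2e-05, adjusted p = 0.0009), with r = 0.90 without 2. Within groups r was 0.897 for Hspa8 with Hsph1 and 0.735 for Hspa8 with Dnajb1. Hspd1 and Hspe1, the Hsp60 and Hsp10 genes of 1 shared promoter, had r = 0.74 (permutation p = 0.00603, adjusted p = 0.0339) and rho = 0.74 (permutation p = 0.00785, adjusted p = 0.0392), with r = 0.62 without 2. Hspa1a and Hspa1b had r = 0.96 over 9 libraries (permutation p = 0.00014, adjusted p = 0.0021) and rho = 0.85 (permutation p = 0.00645, adjusted p = 0.0392), with r = 0.96 without 2, for copies that share reads. Hsp90aa1 and Hsp90ab1 had r = 0.39 (permutation p = 0.213, adjusted p = 0.33) and rho = 0.23 (permutation p = 0.468, adjusted p = 0.569), with r = 0.53 without 2.

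The genes most like the members over the 12 libraries were ranked by Pearson r of log2(FPKM + 1) among 7450 genes, as a description. For Hspa8 the first was Dnaja1, a J-domain cochaperone of Hsp70, at r = 0.93. Next came the glycolytic gene Eno1 (0.88), the TRiC chaperonin subunit Cct7 (0.88), the Hsp70-Hsp90 organising protein gene Stip1 (0.88) and the Hsp90 cochaperone Chordc1 (0.88). For Hspd1 the list was Ran (0.91), the TRiC subunit Cct6a (0.91), Tardbp (0.90), the TRiC subunit Cct5 (0.90) and Lsm3 (0.89). For Hspb1 it was Map7d1 (0.91), the tubulin gene Tubb6 (0.91), Sdc3 (0.89), Myo9b (0.89) and Nxn (0.89). For the summed Hspa1a and Hspa1b it was the ribonuclease inhibitor gene Rnh1 (0.94), Nek6 (0.93), Tbc1d10b (0.93), Gnai2 (0.93) and Gtf3c1 (0.92), all of which also had their highest group mean in CD+DSS. Over the 9 libraries outside CD+DSS their r was 0.90, 0.84, 0.84, 0.78 and 0.81 in the same order, and within groups 0.82, 0.63, 0.54, 0.34 and 0.49.

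The wider chaperone network was taken by lists, in the DSS comparison averaged over diets, where 2.74% of all genes passed and 23.5% had an unadjusted p under 0.05. Of 22 tested genes (of 23 listed) of the other Hsp70 system, 1 rose and none fell, with a median log2 difference of 0.05 beside 0.01 for all genes. Dnaja1 had 43.4, 24.0 and 32.2 FPKM in HFD+DSS and 43.8, 44.4 and 44.8 FPKM in CD+DSS, against 16.2, 17.1 and 29.1 FPKM in HFD and 18.0, 20.9 and 27.3 FPKM in CD. It rose by 0.82 ± 0.18 (limma, adjusted p = 0.0398), with every CD+DSS library above every CD library and HFD+DSS replicate 2 below the highest HFD library. Bag3, a nucleotide exchange factor that links Hsp70 to autophagy of damaged proteins, had a difference of 0.53 ± 0.13 (limma, adjusted p = 0.0564) and passed with voom, which called 2 of these genes. Bag4, another Bag-domain cochaperone, had -0.39 ± 0.11 (limma, adjusted p = 0.0838).

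In the other chaperone lists no gene passed with limma or with voom. Of the Hsp90 cochaperones 14 of 15 were tested, with 6 at an unadjusted p under 0.05 and the smallest p for Fkbp8 (0.53 ± 0.15 on the log2 scale), Chordc1 (0.51 ± 0.17) and the phosphatase gene Ppp5c (0.30 ± 0.12). Of the heat shock factors 3 of 4 were tested, with 1 at an unadjusted p under 0.05, the HSF1-binding protein gene Hsbp1 (0.29 ± 0.10). Hsf1 itself averaged 4.02 ± 1.28 FPKM in HFD+DSS, 4.35 ± 0.24 FPKM in CD+DSS, 3.56 ± 0.79 FPKM in HFD and 3.36 ± 1.16 FPKM in CD, within the spread between libraries. All 13 mitochondrial chaperones and proteases were tested, with 1 at an unadjusted p under 0.05, the protease gene Clpp (0.40 ± 0.14). All 14 TRiC and prefoldin subunits were tested, with 4 at an unadjusted p under 0.05, led by Pfdn2 (0.41 ± 0.14). All 16 endoplasmic reticulum chaperones were tested, with 5 at an unadjusted p under 0.05, led by Manf (0.56 ± 0.18), Dnajb11 (0.37 ± 0.12) and Creld2 (0.65 ± 0.23).

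Of the other small heat shock proteins 5 of 7 were tested and 0 had an unadjusted p under 0.05 in the DSS average. Hspb6, abundant in smooth muscle, had 8.19, 8.77 and 27.5 FPKM in HFD+DSS and 7.31, 5.09 and 6.27 FPKM in CD+DSS, against 8.63, 9.64 and 5.11 FPKM in HFD and 6.18, 8.22 and 8.69 FPKM in CD. Hspb8, the partner of Bag3, had 20.1, 11.1 and 32.9 FPKM in HFD+DSS and 15.3, 8.62 and 10.6 FPKM in CD+DSS, against 15.6, 16.8 and 11.5 FPKM in HFD and 10.8, 11.6 and 10.9 FPKM in CD. HFD+DSS replicate 3, the library with the highest smooth muscle sum, was highest for Hspb1, Hspb6 and Hspb8 alike. Its enteric neuron and glia markers summed to 129 FPKM, against 48.0 and 28.6 FPKM in HFD+DSS replicates 1 and 2, and the part of either tissue in these values was not tested.

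Immediate early genes, which respond to stress and to tissue handling within a short time, were listed beside the chaperones. Of 16 listed, 14 were tested, and 1 rose and none fell in the DSS average, against 2.74% of all genes. An unadjusted p under 0.05 was found for 5, with 3 higher and 2 lower, against 23.5% of all genes. Of the 14, 7 were positive, with a median log2 difference of 0.02 beside 0.01 for all genes. Ier3 had 12.5, 12.3 and 16.2 FPKM in HFD+DSS and 15.2, 14.4 and 25.6 FPKM in CD+DSS, against 6.11, 5.41 and 9.05 FPKM in HFD and 6.31, 2.70 and 6.26 FPKM in CD, and rose by 1.31 ± 0.21 (limma, adjusted p = 0.0122). Junb (0.68 ± 0.18; limma, adjusted p = 0.0659) and Zfp36 (0.53 ± 0.15; limma, adjusted p = 0.083) did not pass. The list summed to 343 to 532 FPKM in HFD+DSS and 545 to 754 FPKM in CD+DSS, against 394 to 556 FPKM in HFD and 520.0 to 688 FPKM in CD. The HFD+DSS sums lay below the CD+DSS sums, as Hspa1a and Hspa1b did, and the part of these genes in that result was not tested.

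**Figure D4:**
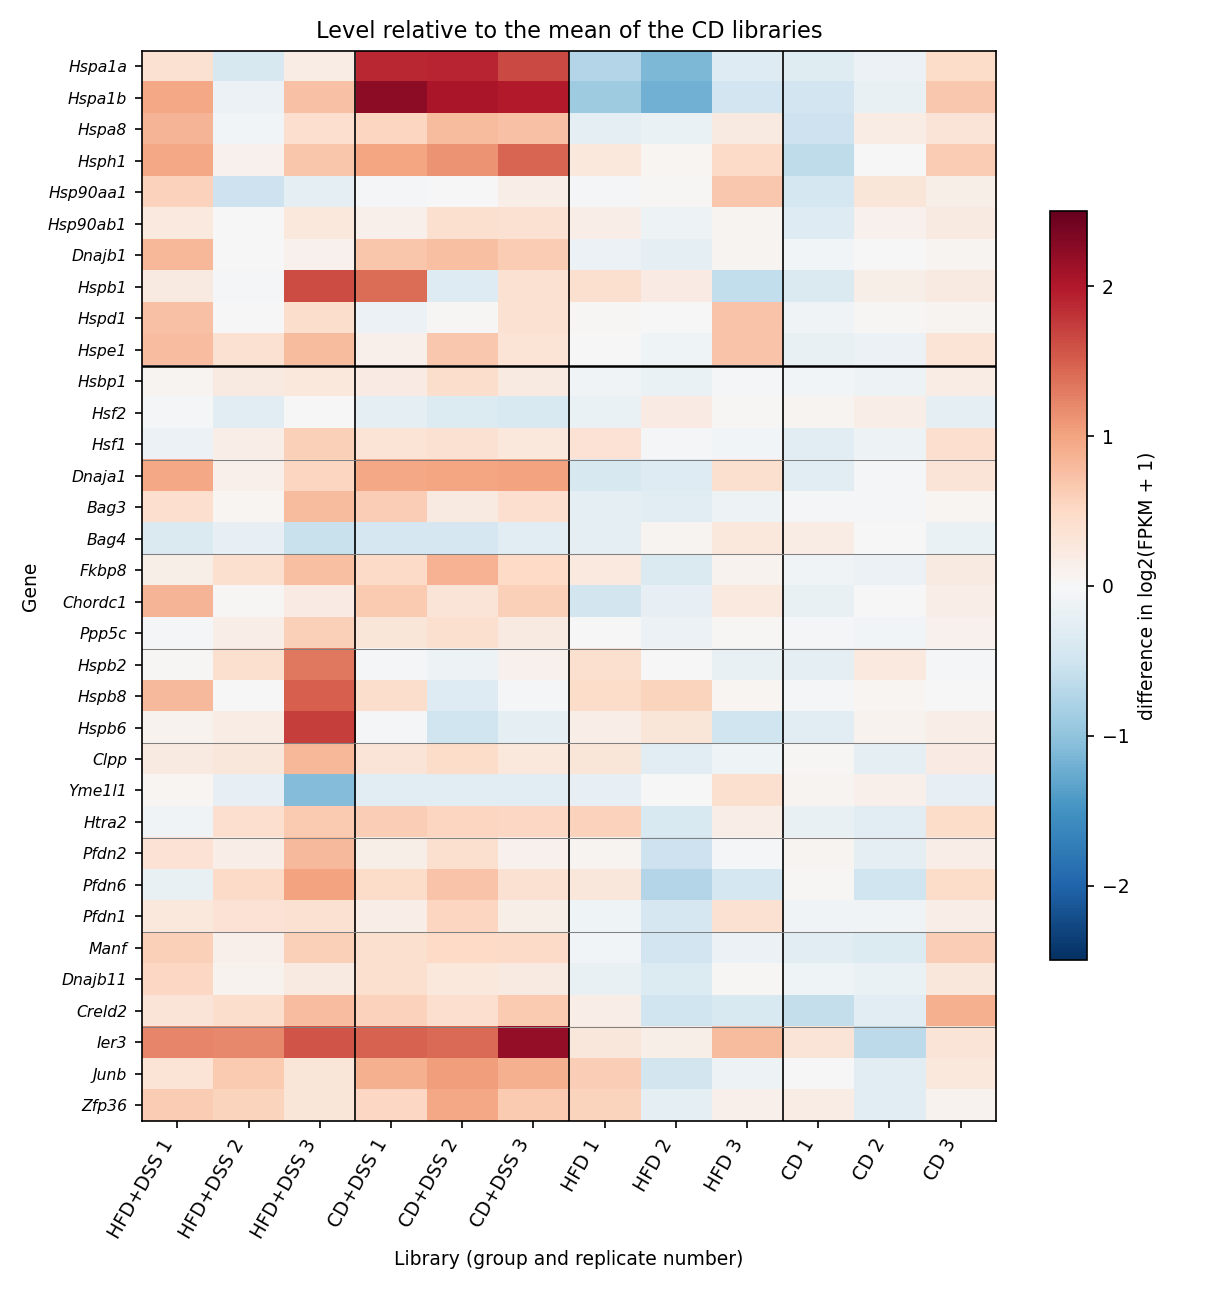
Difference of log2(FPKM + 1) from the mean of the 3 CD libraries (colour) in each library, in columns from HFD+DSS to CD, for the 10 members above the heavy line and the named genes of 8 lists below it. Hspa1a and Hspa1b are darkest in the 3 CD+DSS libraries, and Hspb1, Hspb2, Hspb8 and Hspb6 in HFD+DSS replicate 3.

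Several members share sequence with other genes, so reads could be split between copies in the authors' counting. Of the 75-base stretches of their transcripts, 42.8% for Hsp90aa1, 46.4% for Hspb1, 33.0% for Hspa8, 31.0% for Hspd1 and 14.6% for Hspe1 also occur in another annotated gene, mostly a processed copy. For Hsp90ab1 the share was 0.537%, and for Hsph1 and Dnajb1 it was 0. The values of Hsph1 and Dnajb1 are thus the ones least open to such splitting, and those of Hspa1a and Hspa1b, at 61.7% and 55.8%, the most.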

How the data were processed

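Libraries of 12 mouse colon RNA samples were made with RNeasy and SMARTER mRNA-Seq kits, per the labels' protocols. The authors deposited gene levels as FPKM, and mm10 is the build in the submitters' processing notes. Which aligner and counter they used is not given in the sources used here. Multiplying by GENCODE exon length and a divisor for each library gave whole fragments (within 0.1) for 97.0 to 97.2% of values. Levels were tested as log2(FPKM + 1) with limma 3.58.1 in R 4.3.3 (mean-variance trend, 1 fit of 4 groups, Benjamini-Hochberg adjustment) on the 14179 genes that reached 1 FPKM in 3 or more samples, which included all 10 members; fold changes on this scale understate those of low genes. The fit was tested on simulated data. Correlations used 100000 permutations. Named list genes were the 3 of each list with the smallest p in the DSS average. The members and lists were chosen with earlier results of these data known. Alternatives were the pseudocount, the filter, TPM rescaling, only the groups compared, the replicate block, marker covariates, voom on the recovered fragments, Hspa1a and Hspa1b summed, and each library left out.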

Additional observations from a re-analysis of the deposited data

How the results depend on the processing

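The count of members called in CD+DSS against CD, 1 (Hspa1a), was 0 with log2(FPKM + 0.1), with no filter on low values, with only the groups compared, with the posterior Hox or the smooth muscle level as a covariate, and with Hspa1a and Hspa1b summed. It was 2 (with Hspa1b) after TPM rescaling and with voom. Leaving out each library gave 0 to 2: 2 without CD replicate 3, HFD+DSS replicate 1 or HFD+DSS replicate 2, 1 without HFD or HFD+DSS replicate 3, and 0 without any of the other 7. The count for DSS averaged over diets, 2, became 1 with the copies summed, by construction, and 3 with voom or without HFD+DSS replicate 2 (with Dnajb1) and without CD replicate 3 (with Hsph1); leaving out each library gave 2 to 3. In the other 5 comparisons the count of members called was 0 under every setting run, and no called fold change changed sign, while 58 of all 1426 fold changes under alternatives did. Same-numbered samples did not deviate together (r of deviations -0.462 to 0.204 over 18 pairs, beside -0.407 to 0.485 over 36 other pairs). The main fit therefore did not pair them, but these r cannot show whether they shared a cage or batch. With the replicate block the count for CD+DSS against CD was 0, and that for the DSS average stayed at 2. The cause of these changes was not tested. With 3 libraries a group, a p that misses the threshold does not show equal levels.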

Other observations

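The ratio of Hspa1b to Hspa1a FPKM was 4.13, 3.53 and 4.10 in the HFD+DSS libraries and 3.34, 2.85 and 3.27 in CD+DSS, against 2.69, 3.15 and 2.54 in HFD and 2.54, 2.75 and 3.19 in CD. The 3 HFD+DSS libraries lay above the other 9. The ratio was looked at after the values were seen, no test was made of it, and the copies share reads. Hspa1a also overlaps Gm20481 on the opposite strand, and the strand setting of the counting is not given.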
